A study of Anopheles gambiae with 8 samples.

Results

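In *An. gambiae* Sua 4.0 cells, 49 nuclear genes were moderately lower after 20-hydroxyecdysone (20E) than after ethyl alcohol (EtOH) in each of 4 replicate pairs. They were chosen by the measured values. Counts were scaled to CPM, the count of a gene relative to all nuclear counts of its library, and a gene was kept when its mean over the 8 libraries was at least 5 CPM. For each replicate number, the log2 ratio of 20E over EtOH was taken after adding 0.5 CPM to both values, and a member had all 4 ratios between -2.0 and -0.6. Of 6950 nuclear genes at that level, 53 met the limits, and 49 (0.705%) were retained after 5 genes, of which 4 met the limits, had been set aside by name. The fall after 20E is therefore how these genes were found and not a result about them.

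RNA was measured in 8 cultures of Sua 4.0, an established cell line of the malaria mosquito *An. gambiae*. Treated cells received 20E at 1 μM and control cells an equal volume of its solvent, and both were harvested after 24 h. The sample labels give 10% ethanol for both groups, while the methods of the study describe an undiluted solvent, so the final ethanol content is uncertain. Each group held 4 libraries, numbered 1 to 4, from 4 independent biological replicates, and Sua 4.0 was the only line. The labels do not say that equal numbers share an experiment. This was inferred, because deviations from the group means correlated at 0.646 to 0.835 for equal numbers.

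20E is the steroid hormone of insect moulting, which female mosquitoes also produce after a blood meal. It binds a heterodimer of the nuclear receptors EcR and USP, which switches on a set of early genes encoding transcription factors, and these in turn change the expression of many later genes. In the adult female the hormone drives yolk protein production in the fat body, a tissue that also carries out much of the amino acid, sugar and lipid metabolism of the insect.

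The libraries held 6865599 to 14878014 counts with 20E and 7761718 to 13566683 counts with EtOH. Replicate 1 was the shallowest library of both groups and had the largest mitochondrial share, 18.9% with 20E and 21.2% with EtOH. The mitochondrial share was lower with 20E in all 4 pairs, at 18.9%, 7.75%, 7.11% and 13.0% with 20E against 21.2%, 15.8%, 11.0% and 16.0% with EtOH, and mitochondrial counts were left out of the CPM scale. All 8 listed genes for hemocyte proteins summed to 1993 to 2926 CPM with 20E and 1961 to 4188 CPM with EtOH. This sum was mostly SPARC, which was lower with 20E in each pair, at 2486, 1725, 2458 and 2026 CPM with 20E against 4077, 1774, 3032 and 3014 CPM with EtOH. The prophenoloxidase genes PPO3 and PPO8 moved the other way in each pair, with 108 to 565 CPM for PPO3 with 20E against 68.6 to 115 CPM with EtOH and 3.59 to 64.9 CPM for PPO8 with 20E against 0.479 to 1.32 CPM with EtOH, and LRIM1, which marks hemocytes and fat body, had 0 counts in every library. Both listed fat body genes, vitellogenin and the apolipophorin precursor, summed to 2558 to 5744 CPM with 20E and 1111 to 3108 CPM with EtOH, and their sum was higher with 20E in each pair, while vitellogenin alone was lower in each. The 2 trypsin genes of the midgut summed to at most 1.23 CPM in any library, and the myosin heavy chain of muscle lay between 0.941 and 4.03 CPM with 20E and between 0.911 and 4.45 CPM with EtOH. These marker IDs come from general knowledge of the species, not from the deposited table. The part of these shifts in the results below was not tested, and in bulk RNA fewer cells of a type and less RNA per cell cannot be told apart.

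The pair ratios are given as a description, since requiring all 4 to lie within the limits holds the pairs close to each other. The median log2 ratio of the 49 genes was -0.89 in pair 1, -0.97 in pair 2, -1.08 in pair 3 and -1.07 in pair 4. Over all 6950 genes the medians were -0.00017, -0.016, 0.15 and 0.10, so pairs 3 and 4 carried a small upward shift on this scale. With TMM scaling, which sets most genes to no change, the medians over all genes were 0.0069, 0.0071, 0.0040 and 0.0099. On the TMM scale all 49 genes were still below 0 in every pair, with single ratios between -2.03 and -0.58. The mean of the 4 ratios had a median of -1.03 over the members, and 27 members had a mean at or below -1.

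**Figure D1:**
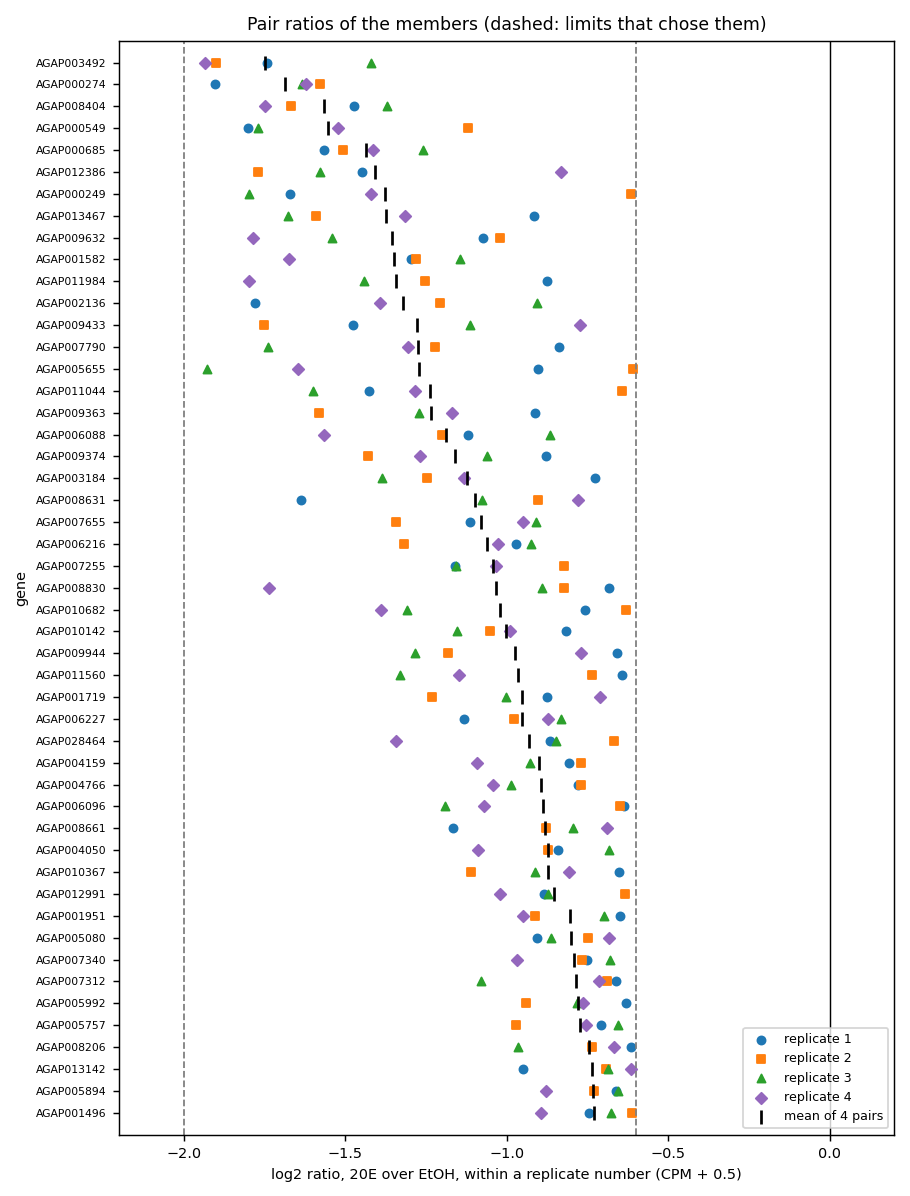
Log2 ratio of 20E over EtOH (x axis, 0.5 CPM added to both) for the 49 genes (y axis), with 1 symbol for each of the 4 replicate pairs, a black bar for the mean and dashed lines at the limits of -2.0 and -0.6 by which the genes were chosen. Mean ratios run from -1.75 for AGAP003492 at the top to -0.73 for AGAP001496 at the bottom, and the 4 symbols of a gene are spread over 0.22 to 1.32.

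In the plot of pair ratios, the 4 ratios of a member spanned a median of 0.51 on the log2 scale, beside 0.52 over all 6950 genes. Pair 4 gave the lowest ratio in 17 of the 49 genes and pair 1 the highest in 16. The widest span, 1.32, was that of AGAP005655, which had ratios of -0.90, -0.61, -1.93 and -1.65.

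The limits were sharp and the counting error was not negligible beside them. Just inside the upper limit stood AGAP005655, with -0.61 in pair 2, and AGAP001496, with -0.74, -0.61, -0.68 and -0.89 in pairs 1 to 4. Just outside it were AGAP012477, with -0.598 in pair 1, and AGAP007209, with -0.596 in pair 2. At the lower limit AGAP003492 and AGAP005655 each reached -1.93 and were included, while AGAP013186, which encodes a leucine-rich repeat protein, reached -2.01 and the cytochrome P450 gene AGAP008018 reached -2.05. Of the 196 pair ratios of the members, 62 lay within 2 standard errors of counting of a limit, and 15 members had no such ratio. The 49 genes are thus a slice of a continuous range. In all, 83 of the 6950 genes were at or below -0.6 in all 4 pairs, and 30 of these had at least 1 ratio below -2.0. A decrease of any size in all 4 pairs was found for 953 genes (13.7%).

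The largest mean decrease belonged to AGAP003492 (chromosome 2R, 38629621 to 38647187, genome build AgamP4), annotated as a facilitated glucose transporter of solute carrier family 2, a class of proteins that let sugar cross the membrane down its gradient. It had 25.7, 13.8, 15.9 and 17.3 CPM in 20E replicates 1 to 4, against 87.2, 52.7, 43.5 and 67.4 CPM in EtOH replicates 1 to 4. Every 20E library was below every EtOH library, and replicate 1 was the highest in both groups. The means were 18.2 ± 5.22 CPM with 20E and 62.7 ± 19.1 CPM with EtOH (SD, n = 4 each), and the pair ratios were -1.74, -1.90, -1.42 and -1.93. With TMM scaling its ratio in pair 4 was -2.02, past the lower limit.

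AGAP000274 (chromosome X, 5005958 to 5006816), for which no description was given, had the next lowest mean ratio, -1.69. Its libraries held 15.6, 13.3, 18.5 and 18.2 CPM in 20E replicates 1 to 4, against 59.8, 40.8, 58.4 and 57.1 CPM in EtOH replicates 1 to 4. The 20E values lay close together, the groups were far apart, and EtOH replicate 2 was the lowest of its group. AGAP008404 (chromosome 3R, 10360667 to 10362505), also without a description but grouped with metabolism in the gene table of the study, had 54.6, 36.2, 75.0 and 38.7 CPM with 20E, against 152, 116, 195 and 131 CPM with EtOH. Replicate 3 had the highest library of each treatment, and the groups did not overlap.

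AGAP000549 (chromosome X, 9839687 to 9843870) encodes the E2 component of 2-oxoisovalerate dehydrogenase, the core of the mitochondrial complex that commits branched-chain amino acids to breakdown. It had 18.0, 25.5, 26.3 and 18.3 CPM with 20E, against 63.8, 56.0, 90.7 and 53.6 CPM with EtOH, with no overlap of the groups. Its mean ratio was -1.55, and pair 2 had the smallest decrease, -1.12. AGAP012386 (chromosome 3L, 41415523 to 41432021), which the gene table of the study places with immunity without a description, had 8.98, 11.8, 18.7 and 6.34 CPM with 20E, against 25.3, 41.5, 56.7 and 11.7 CPM with EtOH. The groups overlapped, because EtOH replicate 4 was lower than 20E replicates 2 and 3, and the pair ratios were -1.45, -1.77, -1.58 and -0.83.

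**Figure D2:**
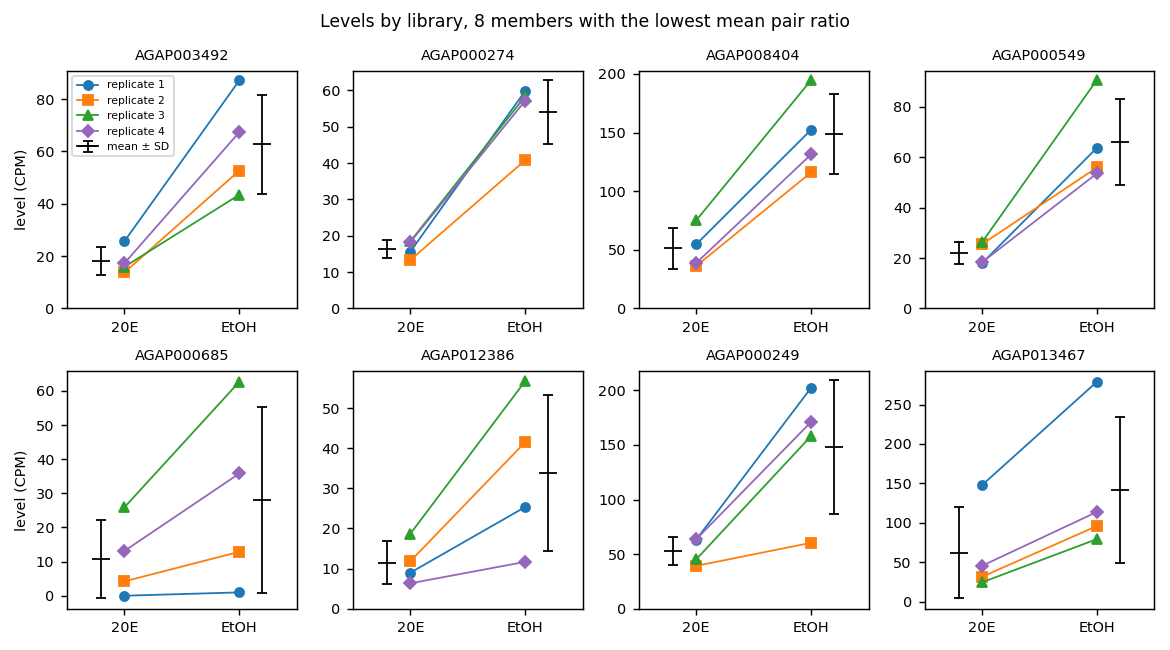
Level in CPM (y axis, linear) with 20E and EtOH (x axis) for the 8 members with the lowest mean ratio; lines join the libraries of a replicate number and the black bars give mean ± SD of 4 libraries. Each line lies lower at 20E, while the groups overlap in AGAP000685, AGAP012386, AGAP000249 and AGAP013467.

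Among the 8 genes in the plot of levels, AGAP000685 (chromosome X, 12160909 to 12169682, no description) had the least secure ratio. Its levels were 0, 4.21, 25.9 and 13.1 CPM in 20E replicates 1 to 4, against 0.981, 12.9, 62.7 and 35.8 CPM in EtOH replicates 1 to 4. Replicate 1 was almost devoid of the transcript in both groups, with 0 counts with 20E and 6 counts with EtOH, so that its first pair ratio of -1.57 rests on the added 0.5 CPM and on those 6 counts. The other 3 pairs rested on 48, 358 and 151 counts with 20E against 107, 757 and 374 counts with EtOH. AGAP013467 (chromosome 2R, 43073588 to 43076657, no description) showed the opposite ranking, with 148, 31.5, 24.5 and 45.4 CPM with 20E, against 279, 95.9, 79.3 and 114 CPM with EtOH. Replicate 1 was the highest library in both groups, and 20E replicate 1 exceeded all EtOH libraries but that of its own pair.

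Of the 49 genes, 18 appear in the table of 128 differentially expressed genes of the study, and 13 of these carry a description. That table was drawn up on these same samples, so its overlap with the members is no independent evidence of a decrease. The other 36 members have no description here, and 5 of them are in that table with a category only. The described members fall into a few functional groups, which are taken in turn with the other genes of each group in that table. The lists of these groups hold no gene from outside that table. Test calls of listed genes are therefore given as a description in all groups below.

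The breakdown of amino acids was represented by AGAP000549, above, and by AGAP009433 (chromosome 3R, 33479122 to 33480740), which encodes arylformamidase, the enzyme that forms kynurenine from formylkynurenine in tryptophan degradation. AGAP009433 had 41.8, 23.0, 24.0 and 42.7 CPM with 20E, against 117, 78.7, 52.6 and 73.3 CPM with EtOH. The groups did not overlap, and its pair ratios were -1.48, -1.75, -1.11 and -0.77, the strongest decrease being in pair 2. All 3 genes listed for branched-chain amino acid breakdown had lower means with 20E, and 2 of the 3 passed the test of edgeR in the fit on treatment alone, AGAP000549 (adjusted p = 0.0314) and the 3-hydroxyisobutyrate dehydrogenase gene AGAP005581 (log2 fold change -2.39, adjusted p = 0.0882). AGAP005581 and the methylmalonate-semialdehyde dehydrogenase gene AGAP002499 were no members because their largest decreases exceeded the lower limit, at -2.64 and -2.13. The fumarylacetoacetase gene AGAP005865, of tyrosine breakdown, likewise went beyond it, at -2.46 in pair 4, and neither of the 2 genes listed for tyrosine and tryptophan breakdown passed the test without a block. With the block all 3 genes of the branched-chain list and both of the tyrosine and tryptophan list were called lower. Over all 8180 genes tested, 0.281% were called lower without the block and 9.11% with it. The listed genes had been found differentially expressed in these same samples, so nothing is read from their calls.

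Dopamine N-acetyltransferase, *Dat* (AGAP010142, chromosome 3R, 49370055 to 49390808), acetylates dopamine and other amines in *Drosophila*. It had 27.8, 33.0, 24.4 and 35.9 CPM with 20E, against 49.4, 68.9, 54.9 and 71.9 CPM with EtOH. Its pair ratios were -0.82, -1.05, -1.15 and -0.99, and the groups did not overlap. For the use of lipid-derived fuel, the succinyl-CoA transferase gene *SCOT* (AGAP006096, chromosome 2L, 26620119 to 26624763), whose enzyme activates ketone bodies in mitochondria, had 97.3, 96.9, 89.2 and 95.3 CPM in 20E replicates 1 to 4, against 152, 152, 204 and 201 CPM in EtOH replicates 1 to 4. The 20E libraries were nearly equal, the groups did not overlap, and the ratios were -0.64, -0.65, -1.19 and -1.07, stronger in pairs 3 and 4. The other gene listed for fatty acid oxidation, the acyl-CoA dehydrogenase gene AGAP028164, had a ratio of -2.19 in pair 4, beyond the limit, and an adjusted p of 0.134 by edgeR's quasi-likelihood test without the block and of 0.000313 with it.

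Cytochrome P450 enzymes are heme monooxygenases that oxidise steroids, fatty acids, drugs and insecticides. The members AGAP009363 (chromosome 3R, 31793155 to 31795094) and AGAP009374 (chromosome 3R, 31842847 to 31844432) both belong to this family, lie near each other on chromosome 3R, and carry the same symbol, *CYP9M1*, in the gene table of the study. AGAP009363 had 32.1, 20.2, 42.6 and 47.5 CPM with 20E, against 61.0, 61.6, 104 and 108 CPM with EtOH. AGAP009374 had 21.9, 16.3, 41.2 and 35.0 CPM with 20E, against 40.7, 44.8, 86.6 and 85.0 CPM with EtOH. Both were highest in replicates 3 and 4, and both showed their largest decrease in pair 2, with pair ratios of -0.91, -1.58, -1.27 and -1.17 for AGAP009363 and -0.88, -1.43, -1.06 and -1.27 for AGAP009374. The groups overlapped only in AGAP009374, where 20E replicate 3 was slightly above EtOH replicate 1. Reads mapping to more than a single place were dropped before counting, so any sequence shared by the paralogs adds to neither level. The other P450 genes in the table, AGAP008018, AGAP012292 and AGAP012295, went beyond the lower limit in at least 1 pair, with lowest ratios of -2.05, -2.94 and -3.80. None of the 5 P450 genes passed the quasi-likelihood test of edgeR without a block, with adjusted p from 0.244 for AGAP008018 to 0.609 for AGAP012292. With the replicate number as a block all 5 were called lower by edgeR, with adjusted p from 0.000118 for AGAP009363 to 0.000985 for AGAP012292. The share over all genes tested was 9.11%. Only P450 genes already in that table were looked at, so these calls say nothing about the family as a whole.

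**Figure D3:**
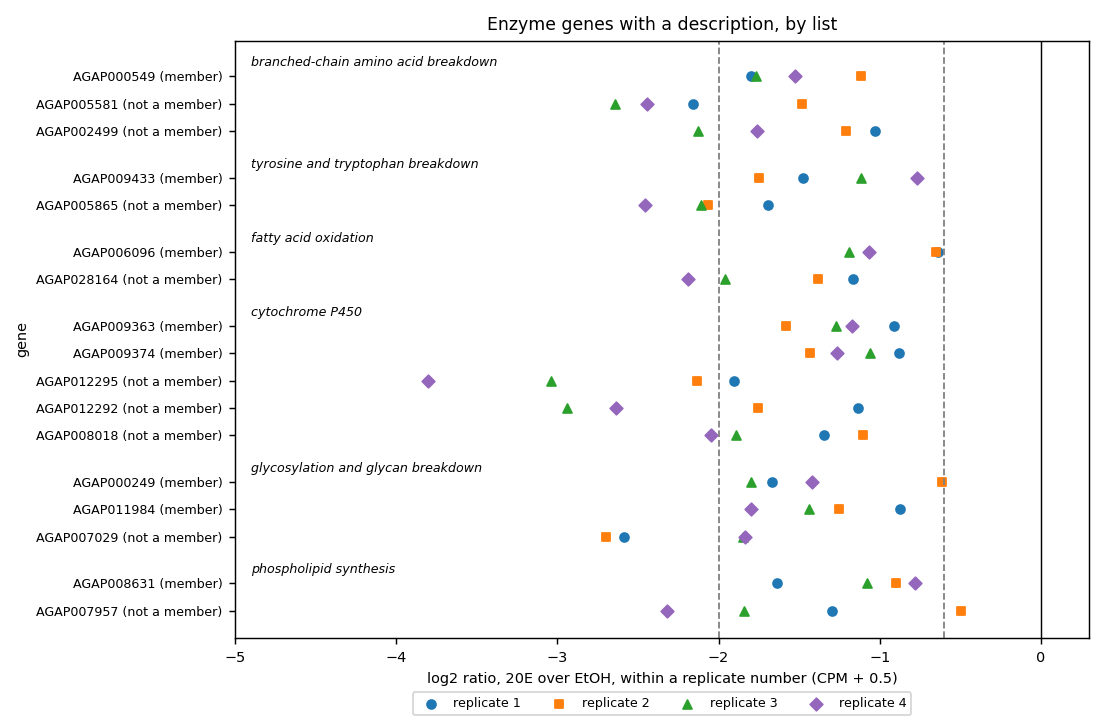
Log2 ratio of 20E over EtOH (x axis, 0.5 CPM added) for the described enzyme genes of 6 functional groups (y axis), members first in each group, with 1 symbol for each replicate pair and dashed lines at the limits of -2.0 and -0.6. All genes shown are from the study's table of differentially expressed genes, and all are below 0 in every pair. Those that are not members crossed a limit in at least 1 pair, the farthest at -3.80 for AGAP012295.

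The plot of enzyme genes places each member beside the other genes of its group in the study's table. Genes of these groups outside that table are not shown, so the plot does not describe whole pathways. Glycan metabolism gave both AGAP000249 (chromosome X, 4593069 to 4595917), a mannosyl-glycoprotein endo-beta-N-acetylglucosaminidase that cuts N-glycans from proteins, and AGAP011984 (chromosome 3L, 35870317 to 35872354), a polypeptide N-acetylgalactosaminyltransferase that starts mucin-type O-glycans. AGAP000249 had 63.2, 39.2, 45.1 and 63.6 CPM with 20E, against 202, 60.4, 158 and 171 CPM with EtOH. EtOH replicate 2 was far below its group, lower than 20E replicates 1 and 4, and the ratio of that pair was the smallest in size, -0.62. AGAP011984 had 26.9, 16.5, 13.5 and 11.9 CPM with 20E, against 49.9, 39.9, 37.4 and 42.6 CPM with EtOH, with no overlap of the groups and ratios of -0.88, -1.25, -1.44 and -1.80. The remaining gene listed there, the glycosyltransferase gene AGAP007029, had ratios as low as -2.70. None of these 3 genes was called without the block, and all 3 were called lower with it.

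In phospholipid synthesis the member was AGAP008631 (chromosome 3R, 13765207 to 13771666), an ethanolaminephosphotransferase, which makes phosphatidylethanolamine from diacylglycerol. It had 68.4, 76.4, 45.4 and 66.4 CPM with 20E, against 214, 143, 96.3 and 114 CPM with EtOH. Pair 1 had the largest decrease, -1.64, with EtOH replicate 1 the highest library of all and 20E replicate 1 within the range of its group, and the groups did not overlap. The choline/ethanolamine kinase gene AGAP007957, which acts earlier in the same route, crossed both limits, with ratios of -1.30, -0.50, -1.84 and -2.32, and passed the quasi-likelihood test of edgeR without a block (adjusted p = 0.0882). AGAP008631 did not (adjusted p = 0.143, edgeR), and both were called lower with the block.

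Of the 7 genes listed for solute transport only the glucose transporter gene AGAP003492 was a member, and 3 of the 7 were higher with 20E in all 4 pairs. In that list 2 genes were called lower and 1 higher without a block, and 4 lower and 3 higher with it. The lysosomal hydrolase and glycolysis lists, of 1 gene each, held no member. The glutathione transferase and leucine-rich repeat lists held none either, but 1 of 2 and 2 of 6 of their genes were among those set aside by name, so this absence follows in part from that choice. Finally, no gene of the table matched the lists for the nuclear respiratory chain, the cell cycle or cytosolic ribosomes. Genes of these groups outside the table were not examined.

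The last described members carry descriptions from signalling, membrane traffic and DNA repair, which are taken as given. Methuselah receptor 2 (*GPRMTH2*, AGAP006216, chromosome 2L, 28468559 to 28472431) belongs to a family of G protein-coupled receptors linked to life span and stress resistance in *Drosophila*, and had 54.8, 62.8, 75.0 and 42.5 CPM with 20E, against 108, 157, 143 and 87.0 CPM with EtOH. Endophilin-A (AGAP004766, chromosome 2L, 3163010 to 3178079), which bends membranes during endocytosis, had 88.0, 112, 93.5 and 96.4 CPM with 20E, against 151, 192, 186 and 199 CPM with EtOH. In both genes all 20E libraries were below all EtOH libraries. AGAP009632 (chromosome 3R, 37344766 to 37348430) is described as an ataxia telangiectasia mutated family protein, a family of kinases that respond to DNA breaks. The gene table of the study places it under redox, stress and mitochondria, and its function was not examined here. It had 69.9, 43.9, 26.0 and 24.8 CPM with 20E, against 148, 89.6, 76.8 and 86.9 CPM with EtOH, and its groups did not overlap either.

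The members with the most counts were all without a description. AGAP028464 (chromosome 2L, 44329073 to 44331188) had 662, 368, 684 and 376 CPM in 20E replicates 1 to 4, against 1206, 585, 1231 and 954 CPM in EtOH replicates 1 to 4. Replicates 1 and 3 were high and replicates 2 and 4 lower with 20E, while EtOH replicate 2 alone was low, so the groups overlapped. AGAP003184 (chromosome 2R, 33619696 to 33629877) had 321, 378, 123 and 258 CPM with 20E, against 531, 897, 322 and 566 CPM with EtOH, and its replicate 2 was the highest and its replicate 3 the lowest in both groups. AGAP009944 (chromosome 3R, 45804678 to 45806458) had 386, 248, 141 and 295 CPM with 20E, against 609.9, 564, 344 and 503 CPM with EtOH. In that gene too replicate 3 was the lowest in both groups, at a level below every library of the other replicates within its group. AGAP005757, AGAP012991, AGAP004159, AGAP011560 and AGAP005894 completed the 8 most counted members, with mean ratios of -0.77, -0.85, -0.90, -0.97 and -0.73. The groups overlapped in all 8 of these genes.

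Over all members, the mean level had a median of 44.8 CPM with 20E and 87.3 CPM with EtOH, beside medians over all 6950 genes of 47.8 CPM with 20E and 45.8 CPM with EtOH. Every 20E library was below every EtOH library in 21 of the 49 members (42.9%) and in 141 of all 6950 genes (2.03%). In the fit on treatment alone, the quasi-likelihood test in edgeR found 11 of the 49 members lower (22.4%) at an adjusted p of at most 0.1, against 0.281% of all 8180 genes tested. Once replicate numbers entered as a block, all 49 were lower, against 9.11% of all genes. Because the members were chosen on this very contrast, nothing is read from these shares, and they are given as a description. The median log2 fold change was -1.13 over the members without the block and -1.12 with it, beside 0.0079 and 0.0087 over all genes tested.

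The 11 members called without a block were AGAP000274, AGAP000549, AGAP011044, AGAP004766, AGAP003492, AGAP010142, AGAP008404, AGAP006216, AGAP006096, AGAP005080 and AGAP007340, with adjusted p from 0.0176 to 0.0954 by edgeR's quasi-likelihood test. In each of them the 20E and EtOH libraries did not overlap. Their log2 fold changes ranged from -1.84 ± 0.30 in AGAP003492 to -0.86 ± 0.17 in AGAP007340 (± SE). This count, from the fit that ignores the pairing of libraries, hung on single libraries. It was 8, 2, 3 and 1 without 20E replicates 1, 2, 3 and 4, and 5, 10, 3 and 2 without EtOH replicates 1, 2, 3 and 4. The fit with the block was not repeated with libraries left out.

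A difference between experiments that both libraries of a replicate number share cancels in the pair ratio. The choice of the genes did not use its size. The limits do cap the spread of the 4 pair ratios, which enters the error of the tests below. Those tests are thus not wholly free of the choice. The 4 ratios spanned a median of 0.51 in members and 0.52 over all 6950 genes. Members also had higher levels, with a median mean of 68.8 CPM beside 47.2 CPM. Differences between the 4 experiments were large. The replicate numbers differed, by the quasi-likelihood test of edgeR with treatment in the fit, in 45 of the 49 members (91.8%), against 68% of all 8180 genes tested and 70.9% of the 6944 tested genes with a mean of at least 5 CPM. The 4 members that did not pass were AGAP010367, AGAP011044, AGAP006096 and AGAP004766, with adjusted p of 0.117, 0.230, 0.236 and 0.261 (edgeR, Benjamini-Hochberg). The difference between the members' share and that of all genes was not tested.

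The spread between replicate means, as the highest minus the lowest on the log2 scale, had a median of 1.17 over the members and 0.703 over all 6950 genes. It exceeded 1 in 29 members (59.2%) and in 2068 of all genes (29.8%). Of the variation of a member over the 8 libraries on the log2 scale, the replicate number accounted for a median of 42.0%, the treatment for 55.5% and the rest for 1.52%, beside 77.1%, 7.20% and 9.18% over all genes. The share of the treatment follows from how the genes were chosen, and the limits cap the rest, which is the spread of the pair ratios. Because the shares of a gene make up its whole variation, the share of the replicate number is not free of the choice either. The replicate number accounted for more than the treatment did in 20 of the 49 members, beside 6151 of all 6950 genes, a gap that follows from the same choice. Among the EtOH libraries alone, the highest level was a median of 2.22 times the lowest in the members. Over all genes it was 1.68 times the lowest, but there 0.5 CPM had been added to both levels, so these medians are not on the same measure. In 30 members the highest exceeded 2 times the lowest, a count not made over all genes.

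**Figure D4:**
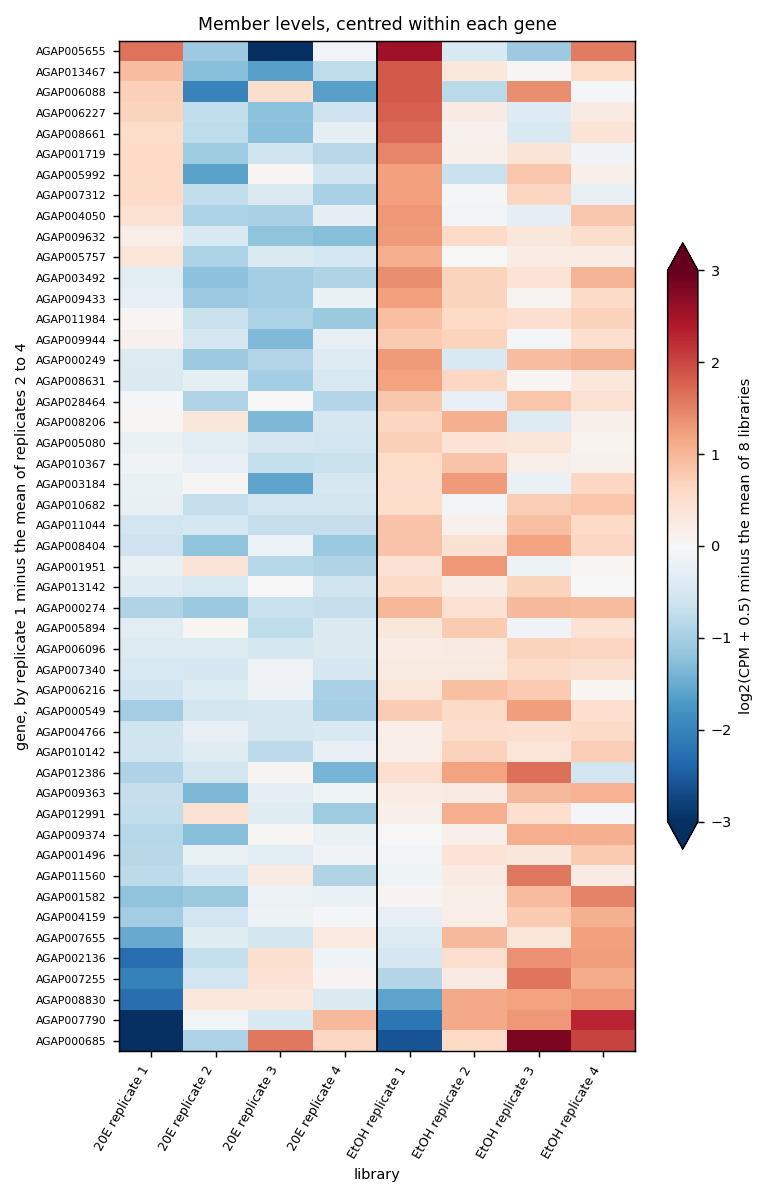
Colour map of log2(CPM + 0.5) minus the mean of the gene over 8 libraries, for the 49 members (rows, ordered by the log2 difference of replicate 1 from replicates 2 to 4, highest at the top) in the 20E and EtOH libraries (columns, 20E left of the line). Replicate 1 is the high column of both treatments at the top, led by AGAP005655 with a difference of 2.83, and the low column of both treatments at the bottom, where AGAP000685 has a difference of -5.37.

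In the colour map of the members, both treatments repeat much the same replicate pattern. The limits cap the spread of the pair ratios of a member, so this likeness is not free of the choice of the genes. It is given as a description and not as a trait of the members. The replicate with the highest level was the same with 20E and with EtOH in 37 of the 49 members (75.5%) and in 66.9% of all 6950 genes. The difference between these shares was not tested. Replicate 1 was the highest in 18 members with 20E and 19 with EtOH, and the lowest in 11 with 20E and 15 with EtOH.

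Against the mean of replicates 2 to 4, replicate 1 was higher in 20 members (40.8%) and lower in 12 (24.5%) by edgeR's quasi-likelihood test at an adjusted p of at most 0.1. Replicate 1 was already known from these data to stand apart when this contrast was chosen, so its p-values are given as a description. Over all genes tested, 23.7% were higher in replicate 1 and 23% lower, and at a mean of at least 5 CPM 23.1% were higher and 25.1% lower. The median difference was 0.17 over the members and -0.0092 over all genes tested. The members thus held genes on both sides of replicate 1. The share of members higher in replicate 1 was above that of all genes, but the difference between the shares was not tested, and replicate 1 was also the shallowest pair with the largest mitochondrial share, whose part in it was not tested.

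The gene furthest above in replicate 1 was AGAP005655 (chromosome 2L, 18335094 to 18338289, no description), with 69.0, 10.1, 2.24 and 20.7 CPM in 20E replicates 1 to 4, against 129.5, 15.6, 9.93 and 65.8 CPM in EtOH replicates 1 to 4. Replicates 1 and 4 were high and replicates 2 and 3 low in both groups, and the difference of replicate 1 from the others was 2.83 ± 0.23 on the log2 scale (SE, adjusted p = 1.21e-05, edgeR). AGAP006088 (chromosome 2L, 26350127 to 26354319, no description) had 158, 23.7, 139.9 and 30.8 CPM with 20E, against 345, 55.0, 255 and 92.2 CPM with EtOH. There replicates 1 and 3 were high and replicates 2 and 4 low in both groups, and the replicate 1 difference was 1.73 ± 0.12 (adjusted p = 6.31e-06, edgeR). AGAP006227 (chromosome 2L, 28545568 to 28547787, no description) had 52.4, 19.6, 13.8 and 21.3 CPM with 20E, against 115, 39.1, 25.0 and 39.3 CPM with EtOH, with replicate 1 alone standing above the others in both groups. Its difference was 1.69 ± 0.11 and that of AGAP013467, whose levels stand above, was 1.90 ± 0.15, both past the threshold of the edgeR test with adjusted p of 2.64e-06 and 1.00e-05.

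At the other end, AGAP000685 was lowest in replicate 1, with a difference of -5.37 ± 0.38 (adjusted p = 5.82e-06, edgeR) that includes the library with 0 counts. AGAP007790 (chromosome 3R, 872547 to 879905, no description) had 1.98, 18.4, 14.1 and 38.6 CPM in 20E replicates 1 to 4, against 3.92, 43.6, 48.3 and 96.2 CPM in EtOH replicates 1 to 4. Replicate 1 was the lowest and replicate 4 the highest in both groups, and 20E replicate 4 was above EtOH replicate 1 although every pair was lower with 20E. The difference of replicate 1 was -3.73 ± 0.25 (adjusted p = 4.11e-06, edgeR). AGAP008830 (chromosome 3R, 19101196 to 19117648, no description) had 16.5, 101, 102 and 60.3 CPM with 20E, against 26.8, 178, 189 and 202 CPM with EtOH, and AGAP007255 (chromosome 2L, 44703554 to 44704638, no description) had 14.4, 40.5, 82.5 and 64.1 CPM with 20E, against 32.7, 72.0, 184 and 132 CPM with EtOH. In both, replicate 1 was the lowest library of each group, with differences of -2.60 ± 0.23 for AGAP008830 and -1.94 ± 0.14 for AGAP007255 and adjusted p of 2.84e-05 and 6.58e-06 by edgeR.

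The described enzymes took part in this variation to unequal degrees. Replicate 1 was higher for the glucose transporter AGAP003492, with a difference of 0.73 ± 0.13 (adjusted p = 0.00166, edgeR), for the arylformamidase AGAP009433, with 0.70 ± 0.15 (adjusted p = 0.00545, edgeR), and for AGAP008631, AGAP000249, AGAP011984 and AGAP009632. It was lower for the P450 gene AGAP009374, with -0.56 ± 0.14 (adjusted p = 0.0103, edgeR). The neighbouring P450 gene AGAP009363 had a difference of -0.30 ± 0.14 that did not pass the same edgeR test (adjusted p = 0.113), though it did without 20E replicate 1 (adjusted p = 0.0330). Without EtOH replicate 1 the edgeR call was lost for AGAP000249, AGAP008631 and AGAP009374, with adjusted p of 0.316, 0.346 and 0.223, and without 20E replicate 1 it was lost for AGAP011984, with an adjusted p of 0.367. The 2-oxoisovalerate dehydrogenase gene AGAP000549, *Dat*, *GPRMTH2*, endophilin-A and *SCOT* did not pass the test of replicate 1, with differences between -0.25 and -0.089.

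By position the members lay on every chromosome arm, some of them close together. Chromosome arm 2L held 15 members (30.6%, beside 22.0% of all 6950 genes), 2R 11 (22.4%, beside 30.2%), 3L 6 (12.2%, beside 16.4%), 3R 12 (24.5%, beside 20.1%) and X 5 (10.2%, beside 9.29%). No member was the next annotated gene to another member. However, AGAP013467 and AGAP013142 (chromosome 2R, 43081194 to 43082560) flanked the same gene, AGAP012971. AGAP006216 and AGAP006227 on 2L, and both P450 members on 3R, also lay near each other. A member spanned a median of 3070 bases from start to end, introns included, and all genes 2433, with members from 450 to 84797 bases. In the annotation 4 members overlapped a gene on the other strand, and it is not given whether the counting used strand. AGAP028464 shared 73 bases with AGAP007209, which had ratios of -0.73, -0.60, -0.69 and -1.34. AGAP007312 overlapped AGAP007313, which had more counts than the member and ratios between -0.45 and 0.086, AGAP004159 overlapped AGAP004158, with ratios between -0.90 and -0.28, and AGAP004050 overlapped AGAP013150, which had 0 counts in all libraries.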

How the data were processed

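RNA-seq of 8 Sua 4.0 libraries, 4 with 20E and 4 with EtOH, was used. The authors mapped read pairs with STAR 2.5.2b to AgamP4 and deposited featureCounts (Subread) counts per gene as whole numbers, for 13763 genes, of which 37 are mitochondrial. The listed length of a gene is its full span, introns included, and the strand setting is not given in the sources used here.

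Libraries were grouped by their labels. Depth was 6865599 to 14878014 counts, so genes with few counts have a wide error, and intervals of counting cover counting error only. The closest libraries of a group differed with a chi-square of 65.3 times its degrees of freedom, far above sampling noise, and all were kept as separate samples. The genes, gene lists, alternatives and the contrast of replicate 1 were chosen with earlier results of these data known.

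Tests used edgeR 4.0.16 in R 4.3.3 (TMM, filterByExpr with a minimum count of 10 and a minimum total of 15, glmQLFit, Benjamini-Hochberg over 8180 genes, adjusted p of at most 0.1), with treatment as the only term for 20E against EtOH, and with treatment and replicate number for the replicate tests. Standard errors are the log2 difference over the square root of F. All 49 members passed the filter. The fits with treatment and replicate number were checked on simulated counts, which held changes between treatments and in replicate 1 only. The fit on treatment alone was not checked in this way. Alternatives were DESeq2 1.42.0, RLE size factors, no filter, an adjusted p of 0.05, the replicate block, and each library left out.

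The replicate numbers were taken to pair the libraries, since the series text gives independent experiments. Deviations from the group means also correlated at 0.835, 0.728, 0.804 and 0.646 for equal numbers over 8180 genes, and at most 0.0854 otherwise. The block lowered the biological coefficient of variation to 0.137, against 0.400 without it. Named members were the 8 with the lowest mean ratio, the 8 with the highest mean CPM, up to 4 in each gene list, those nearest the limits and the 4 furthest each way in replicate 1. *Dat*, *GPRMTH2*, endophilin-A and AGAP009632 were named for their descriptions, and members and list genes given only by ID for a count, after their values were seen. Lists were matched to descriptions in the study's gene table, since 0 gene IDs matched the RefSeq table. Sequences were not analysed here.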

Additional observations from a re-analysis of the deposited data

Results flagged for a closer look

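In 6 of the 58 groups of 4 libraries examined, 1 library lay far from the other 3 of its group by Dixon's gap ratio. These were the 20E and EtOH groups of the 29 members named by rule. Chance alone gives this in about 5% of groups, but 8 of the 29 were named for their difference in replicate 1, so the count cannot be set against that rate.

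Replicate 1 was the odd library in 4 of them, and AGAP013467, AGAP006227 and AGAP008830 had been named for that difference. AGAP013467 had 148 CPM in 20E replicate 1, where the others lay between 24.5 and 45.4 CPM. AGAP005757 had 441 CPM in EtOH replicate 1, above 212 to 244 CPM in the others, and AGAP006227 had 115 CPM there, above 25.0 to 39.3 CPM. AGAP008830 had 26.8 CPM in EtOH replicate 1, below 178 to 202 CPM in the others.

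AGAP011560 had 391 CPM in EtOH replicate 3, above 118 to 154 CPM in the others of the group. AGAP000274 had 40.8 CPM in EtOH replicate 2, below 57.1 to 59.8 CPM.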

How the results depend on the processing

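The number of members by the rule, without the genes set aside by name, was 49, and 54 with TMM scaling (44 shared). The 5 members lost with TMM were AGAP003492, AGAP000249, AGAP005655, AGAP001496 and AGAP005992. The number was 51 with 1 CPM added, and 54 and 45 with a mean of at least 1 and 20 CPM. It was 66 to 109 when a replicate pair was left out, 109 without replicate 1.

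Between 20E and EtOH, edgeR's quasi-likelihood test called 65 genes, 23 of them lower, and 557 genes had an unadjusted p under 0.05. It called 32 at an adjusted p of at most 0.05, DESeq2 called 195, and the fit with the replicate block called 1427. Of the members, 11 were called, 5 at 0.05, 23 by DESeq2 and 49 with the replicate block, which pairs the libraries. Leaving out each library gave 16 to 65 genes and 1 to 10 members. Of the values for the named members over all alternatives, 296 kept their direction and call, 19 lost the call, 33 gained it and 0 changed direction.

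For the replicate numbers, leaving out each library gave 4611 to 5169 genes, beside 5561, and 40 to 45 members. For replicate 1 against the others it gave 2546 to 3749 genes, beside 3816, and 27 to 34 members. Of the values of replicate 1 for the named members, 302 kept direction and call, 9 lost the call, 4 gained it and 4 changed sign, none of the last called with all libraries or after the change. Over the libraries left out, AGAP000274 ranged from -0.0099 to 0.20 (0.12 with all), AGAP006096 from -0.31 to 0.11 (-0.089), AGAP003184 from -0.063 to 0.55 (0.26) and AGAP005894 from -0.040 to 0.14 (0.055). The sign turned without EtOH replicate 1 for AGAP000274 and AGAP006096, and without 20E replicate 1 for AGAP003184 and AGAP005894. The cause was not tested.

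Depth limits the members with few counts, AGAP005992 with 394 counts in all 8 libraries and AGAP000685 with 0 in 1 of them. The limits of -2.0 and -0.6 pass through the counting error of many members, so membership at the edge is not firm.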
